A study of Mus musculus with 21 samples.

Results

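The unfolded protein response of the endoplasmic reticulum was followed through 10 genes in mouse quadriceps muscle, namely Hspa5, Hsp90b1, Atf4, Atf6, Xbp1, Ddit3, Herpud1, Dnajb9, Trib3 and Chac1. They were taken by symbol from the 53738 symbols of the expression table, and all 10 had a row. Expression was measured by bulk RNA-seq in 7 groups with 3 libraries each. All mice were wildtype males of the C57/Bl6 strain, 22 to 26 weeks old at sacrifice. Sedentary mice had neither training nor exercise. Untrained mice had 1 treadmill bout to exhaustion and were killed 0, 6 or 72 h later. Trained mice had 12 weeks of voluntary wheel running before the same kind of bout and were killed at the same times. No trained group without the bout was analysed here, so training and the bout cannot be told apart in trained muscle set against sedentary muscle.

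The endoplasmic reticulum folds and modifies secreted and membrane proteins, and in muscle fibres its specialised form, the sarcoplasmic reticulum, also stores calcium. When unfolded proteins build up there, 3 membrane sensors start the unfolded protein response. IRE1 splices Xbp1 mRNA into the form that codes for an active transcription factor, PERK phosphorylates eIF2alpha, which slows translation but favours that of Atf4 mRNA, and ATF6 is cut in the Golgi to release its transcription factor part. Splicing, translation and cleavage are not seen in a gene's total mRNA level, so the values below describe mRNA abundance only.

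Values are in TPM, a relative transcript level corrected for transcript length and scaled to the same total in each library, so read depth is unknown. The column of untrained 0 h replicate 1 held the same values as that of trained 0 h replicate 1 for all 53738 symbols, which leaves 20 distinct libraries. This library was left out of both 0 h groups, which then had 2 libraries each, and it was used once where all 5 distinct 0 h libraries were set against sedentary muscle. The test took in the 11830 genes whose mean level reached 1 TPM, among them 9 of the 10 members, with limma on log2(TPM + 0.5). A gene was called changed at a Benjamini-Hochberg adjusted p below 0.05 with at least a 1.5-fold change, and log2 fold changes are on that scale. Where the libraries of a gene are said not to overlap, the share of all tested genes without overlap was not counted. The 6 muscle fibre markers, such as Ckm and Acta1, summed to 80430 to 95040 TPM in sedentary libraries and, without overlap, to 95590 to 103000 TPM in untrained and 98360 to 100400 TPM in trained muscle at 0 h. Of the 6, Myh1 was called higher at 0 h, and the part of these markers in the 0 h values below was not tested. The other groups ran from 77460 to 95400 TPM. Genes of the mitochondrial genome took 37.7% to 40.6% of TPM in the 0 h libraries and 42.2% to 46.9% in sedentary ones. The median log2 fold change of all tested genes was 0.11 in the 5 libraries at 0 h and 0.12 in trained muscle at 0 h, and these medians were 0.007 and -0.002 when the libraries were scaled by median of ratios. In bulk tissue, a change in the number of cells of one type cannot be told apart from a change in RNA per cell.

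Promoter sequences are shown for Hspa5, Hsp90b1 and Herpud1 because they held the ER stress response element, the sequence through which ATF6 and XBP1 are known to act, or its second form. RefSeq promoters, which run from 250 bases before to 50 after the start, were found for 9 of the 10 members and not for Atf6. The RefSeq table is of GRCm38.p6, and all 9 sequences were located letter for letter in GRCm39, the build of the data. The 250 bases before the start lie at chr2:34661852-34662101 on the plus strand for Hspa5, at chr10:86541309-86541558 on the minus strand for Hsp90b1, and at chr8:95112807-95113056 on the plus strand for Herpud1. Capitals mark the fixed letters, on either strand, of the element (CCAAT, 9 of any base, CCACG, or ATTGG, 1 of any base, CCACG) and, in Herpud1, of the C/EBP-ATF element (TGATG, 1 of any base, AA) that ATF4 can bind.
Hspa5 promoter: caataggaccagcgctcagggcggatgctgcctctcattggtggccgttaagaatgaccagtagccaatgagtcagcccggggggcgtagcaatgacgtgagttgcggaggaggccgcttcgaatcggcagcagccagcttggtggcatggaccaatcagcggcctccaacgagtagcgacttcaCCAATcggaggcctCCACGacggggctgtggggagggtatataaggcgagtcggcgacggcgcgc
Hsp90b1 promoter: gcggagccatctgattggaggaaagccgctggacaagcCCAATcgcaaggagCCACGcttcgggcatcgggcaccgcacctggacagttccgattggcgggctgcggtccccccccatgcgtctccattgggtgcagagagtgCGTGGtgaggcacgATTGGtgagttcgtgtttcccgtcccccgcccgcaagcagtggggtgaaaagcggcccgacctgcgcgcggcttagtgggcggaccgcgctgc
Herpud1 promoter: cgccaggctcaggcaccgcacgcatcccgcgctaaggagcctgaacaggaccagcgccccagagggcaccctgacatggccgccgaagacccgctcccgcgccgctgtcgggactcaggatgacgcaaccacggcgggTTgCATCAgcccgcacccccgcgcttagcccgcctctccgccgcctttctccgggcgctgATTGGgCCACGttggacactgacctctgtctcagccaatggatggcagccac
The first form was present once in Hspa5, from base -65 to -47, and at 2 places in Hsp90b1, from -212 to -194 and, on the other strand, from -107 to -89. It occurred in 0.119% of all 32851 RefSeq promoters searched on both strands. Herpud1 alone of the 9 held the second form, from -52 to -42, which occurred in 0.0365% of all promoters. The C/EBP-ATF element occurred in Herpud1, Trib3 and Chac1, against 3.97% of all promoters. No member held the XBP1 element TGACGTGG in this window, against 0.676% of all promoters, and the short core CCACG, part of both forms, was in 6 of the 9 members and 32.8% of all promoters. A match is a description of the letters only.

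The chaperones Hspa5 and Hsp90b1, the transcription factors Atf4 and Xbp1 and the co-chaperone Dnajb9 were each called higher than in sedentary muscle in at least 1 comparison, at 0 h or 6 h after exhaustion. Called increases of these 5 genes ran from 1.51-fold to 1.82-fold, and no member was called lower in any comparison. Atf6, Ddit3, Herpud1 and Chac1 were called in none of the 10 comparisons. At 72 h none of the 9 tested members was called in either training state.

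**Figure D1:**
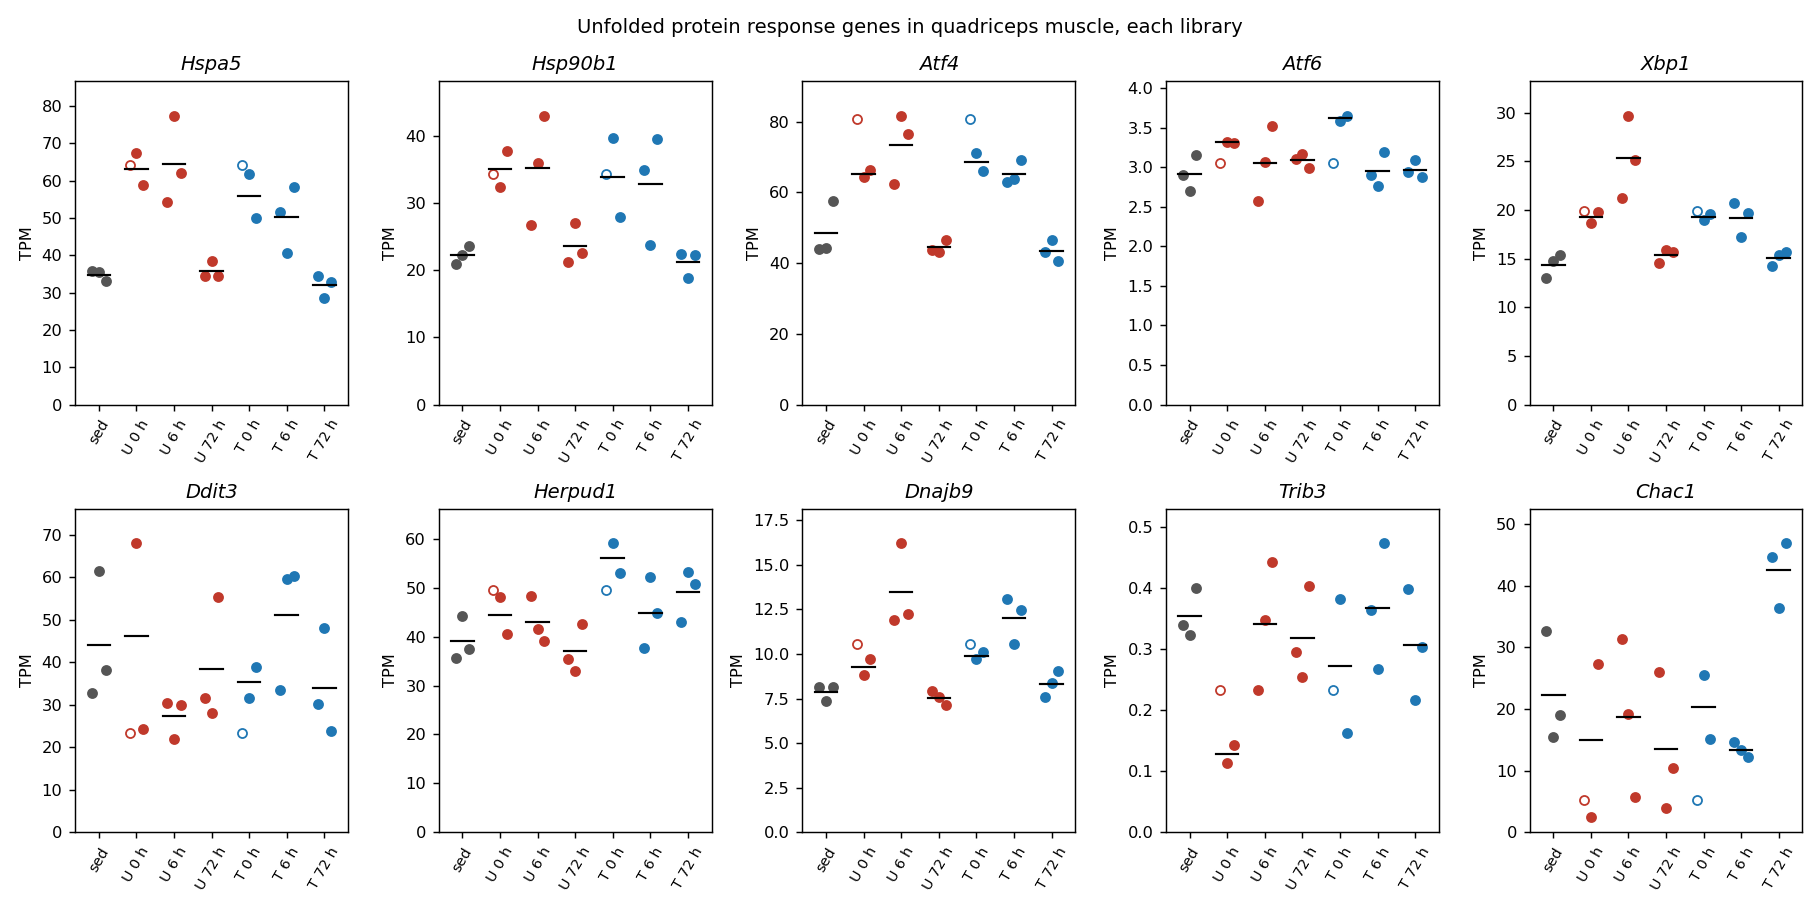
TPM of the 10 genes (vertical axes, from 0) in each library of the sedentary (sed), untrained (U) and trained (T) groups at 0, 6 and 72 h (horizontal axes). Points are libraries, bars are means without the library that is identical in both 0 h groups, and that library is drawn open. Hspa5, Hsp90b1, Atf4, Xbp1 and Dnajb9 were above all sedentary libraries in every 0 h and 6 h library, whereas Ddit3 and Chac1 varied widely within most groups. How many of all tested genes lay above the sedentary range in this way was not counted.

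The first comparison set the 0 h libraries of both training states, taken directly after exhaustion, against sedentary muscle. The trained mice among them also differed from sedentary mice by wheel running. Against sedentary muscle, 2 of 9 tested members were higher at 0 h over both training states (Hspa5 and Hsp90b1), where 3.85% of all 11830 tested genes were called. The median log2 fold change of the 9 members was 0.35, beside 0.11 for all tested genes. By adjusted p alone, without the fold threshold, Atf4 and Xbp1 were added, which made 4 of 9 members where 11.5% of all tested genes passed.

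Hspa5 encodes BiP, the main Hsp70 chaperone of the endoplasmic reticulum and a binding partner that keeps the 3 sensors inactive. Its gene has 8 exons and lies on chromosome 2, 34661982 to 34668880, on the plus strand (GRCm39). Hspa5 stood at 35.9, 35.5 and 33.1 TPM in the sedentary libraries. At 0 h it stood at 67.4 and 58.8 TPM in untrained muscle, 61.7 and 49.9 TPM in trained muscle and 64.0 TPM in the shared library. All 5 libraries at 0 h lay above all 3 sedentary ones. Hspa5 rose by 0.78 on the log2 scale over both training states (SE 0.13, 95% interval 0.51 to 1.05, 1.72-fold, adjusted p = 0.000613). It was also the only member called in each training state taken alone. In untrained muscle it rose by 0.85 (SE 0.16, adjusted p = 0.00583), 1 of 9 members where 2.92% of all tested genes were called. In trained muscle it rose by 0.67 (SE 0.16, adjusted p = 0.0256), 1 of 9 members where 3.24% were called, and with Atf4 it was 1 of 2 members by adjusted p alone, where 5.49% of all tested genes passed. The untrained call was lost without replicate 2 of untrained 0 h (adjusted p = 0.0988). The trained call was lost without any 1 of the sedentary libraries (adjusted p = 0.063, 0.0667 and 0.0504) or without trained 0 h replicate 2 (0.225), and under median-of-ratios scaling (0.53, adjusted p = 0.0619).

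Hsp90b1 encodes GRP94, the Hsp90 chaperone of the endoplasmic reticulum. The gene has 18 exons and lies on chromosome 10, 86526073 to 86541446, on the minus strand. Hsp90b1 stood at 20.9, 22.3 and 23.6 TPM in sedentary muscle, and at 32.5 and 37.8 TPM (untrained), 39.7 and 28.0 TPM (trained) and 34.4 TPM (shared library) at 0 h. Again no 0 h library overlapped the sedentary range. The increase was 0.61 on the log2 scale (SE 0.17, 1.53-fold, adjusted p = 0.0261). This call did not hold without sedentary replicate 1 (adjusted p = 0.106), sedentary replicate 2 (0.0916), untrained 0 h replicate 3 (0.0505) or trained 0 h replicate 2 (0.0563), nor when the mitochondrial genome was taken out of the TPM total (0.48, adjusted p = 0.102).

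Atf4 and Xbp1 were not called at 0 h. Atf4, the transcription factor of the PERK branch, has 3 exons on chromosome 15, 80139372 to 80141745, on the plus strand. Atf4 stood at 43.9, 44.2 and 57.6 TPM in sedentary muscle and at 64.4 to 80.8 TPM in the 5 libraries at 0 h, without overlap. Its log2 fold change was 0.52 (SE 0.10, adjusted p = 0.00324). Xbp1, the substrate of IRE1, has 4 exons on chromosome 11, 5470606 to 5483027, on the plus strand. Xbp1 stood at 13.01, 14.7 and 15.4 TPM in sedentary muscle and within a narrow range of 18.7 to 19.9 TPM at 0 h. Its log2 fold change was 0.42 (SE 0.09, adjusted p = 0.00518), also without overlap. Dnajb9, which encodes the BiP co-chaperone ERdj4, is a known target of XBP1, with 3 exons on chromosome 12, 44252341 to 44257171, on the minus strand. Dnajb9 stood at 8.16, 7.34 and 8.12 TPM in sedentary muscle and at 8.84 to 10.6 TPM at 0 h. The log2 fold change of 0.30 (SE 0.10) did not pass (adjusted p = 0.0554).

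At 6 h, the comparison with sedentary muscle gave the largest number of members called. In untrained muscle 4 of 9 tested members were higher (Hspa5, Xbp1, Dnajb9 and Atf4), where 4.23% of all tested genes were called, and none was lower. The members' median log2 fold change was 0.60, beside 0.02 for all tested genes. In trained muscle at 6 h 0 of 9 members were called, where 3.84% of all tested genes were. By adjusted p alone the same 4 genes passed in trained muscle, where 10.8% of all tested genes did, and the median over the 9 members was 0.41 beside -0.02 for all tested genes. In limma 5 of 9 members had an unadjusted p under 0.05 there, beside 2980 of all 11830 tested genes.

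Hspa5 stood at 54.3, 77.4 and 62.0 TPM in untrained muscle at 6 h and at 51.6, 40.7 and 58.3 TPM in trained muscle. All 6 values were above the sedentary range, and the ranges of both training states overlapped. The log2 fold change against sedentary muscle was 0.87 in untrained muscle (SE 0.14, 1.82-fold, adjusted p = 0.00158) and 0.51 in trained muscle (SE 0.14, 1.42-fold, adjusted p = 0.0363). The untrained call held in all 17 alternative settings tried, with an adjusted p of at most 0.0492.

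Xbp1 stood at 21.2, 29.7 and 25.1 TPM in untrained muscle at 6 h, and at 20.8, 17.2 and 19.7 TPM in trained muscle. Every untrained library lay above every trained one, and every trained one above the sedentary range. Against sedentary muscle Xbp1 rose by 0.79 in untrained muscle (SE 0.10, 1.73-fold, adjusted p = 0.000285), and the log2 fold change in trained muscle was 0.41 (SE 0.10, 1.33-fold, adjusted p = 0.0237).

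Dnajb9 reached its highest levels at 6 h, with 11.9, 16.2 and 12.3 TPM in untrained and 13.1, 10.6 and 12.5 TPM in trained muscle, all above the sedentary range. It rose by 0.73 in untrained muscle (SE 0.11, 1.65-fold, adjusted p = 0.000809). The value in trained muscle was 0.58 (SE 0.11, 1.49-fold, adjusted p = 0.00434), just under the fold threshold. It passed that threshold without sedentary replicate 1 or 3, without trained 6 h replicate 2, with a pseudocount of 0.1, and under both other scalings (0.60 under median of ratios, adjusted p = 0.000777).

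Atf4 stood at 62.3, 81.7 and 76.4 TPM in untrained muscle at 6 h and at 63.0, 63.7 and 69.0 TPM in trained muscle, again above all sedentary libraries. Atf4 rose by 0.60 in untrained muscle (SE 0.11, 1.51-fold, adjusted p = 0.00312), close to the threshold. It fell below 1.5-fold without sedentary replicate 1 (0.53), sedentary replicate 2 (0.53), untrained 6 h replicate 2 (0.51) or untrained 6 h replicate 3 (0.56), with an adjusted p of at most 0.0192 in each, and likewise under median-of-ratios scaling (0.58) and without the mitochondrial genome (0.55). In trained muscle the value was 0.43 (SE 0.11, adjusted p = 0.0206). Hsp90b1 was more variable at 6 h, with 26.8, 36.0 and 43.1 TPM in untrained and 35.0, 23.8 and 39.7 TPM in trained muscle, and neither 0.63 (adjusted p = 0.0632) nor 0.52 (adjusted p = 0.115) passed. Without untrained 6 h replicate 1 it was called in untrained muscle (0.81, adjusted p = 0.0177), and without trained 6 h replicate 2 both Hsp90b1 (0.73, adjusted p = 0.0294) and Hspa5 (0.65, adjusted p = 0.013) were called in trained muscle.

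In the same untrained 6 h libraries, 2 of 5 tested macrophage markers, Cd68 and Csf1r, were called higher than in sedentary muscle. Of all tested genes 4.23% were called there, and 1 of the 5 markers had a negative log2 fold change. Cd68 stood at 4.36, 6.83 and 4.01 TPM against 1.04 to 1.603 TPM. The 6 macrophage markers, none of which was at 0 in all libraries, summed to 24.8, 49.95 and 40.7 TPM in untrained muscle at 6 h and to 28.2 to 30.5 TPM in sedentary muscle, with 33.1 to 37.6 TPM in the 0 h libraries. Replicate 2, with the highest sum, also had the highest Hspa5, Atf4, Xbp1 and Dnajb9 levels of its group. Replicate 1, with a sum below all sedentary libraries, had the lowest levels of these genes in its group, all above the sedentary range. At 72 h in untrained muscle the sum was 41.1 to 45.5 TPM while these genes stood near their sedentary levels. Replicates 1, 2 and 3 of untrained 6 h also differed in their median-of-ratios factor, at 0.898, 1.054 and 1.026. This factor is the typical level, in a library, of the genes seen in all libraries. Fibro-adipogenic marker sums ran from 133 to 370.1 TPM in this group, against 225.7 to 265.4 TPM in sedentary muscle. The part of these cells and of this factor in the values was not tested.

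**Figure D2:**
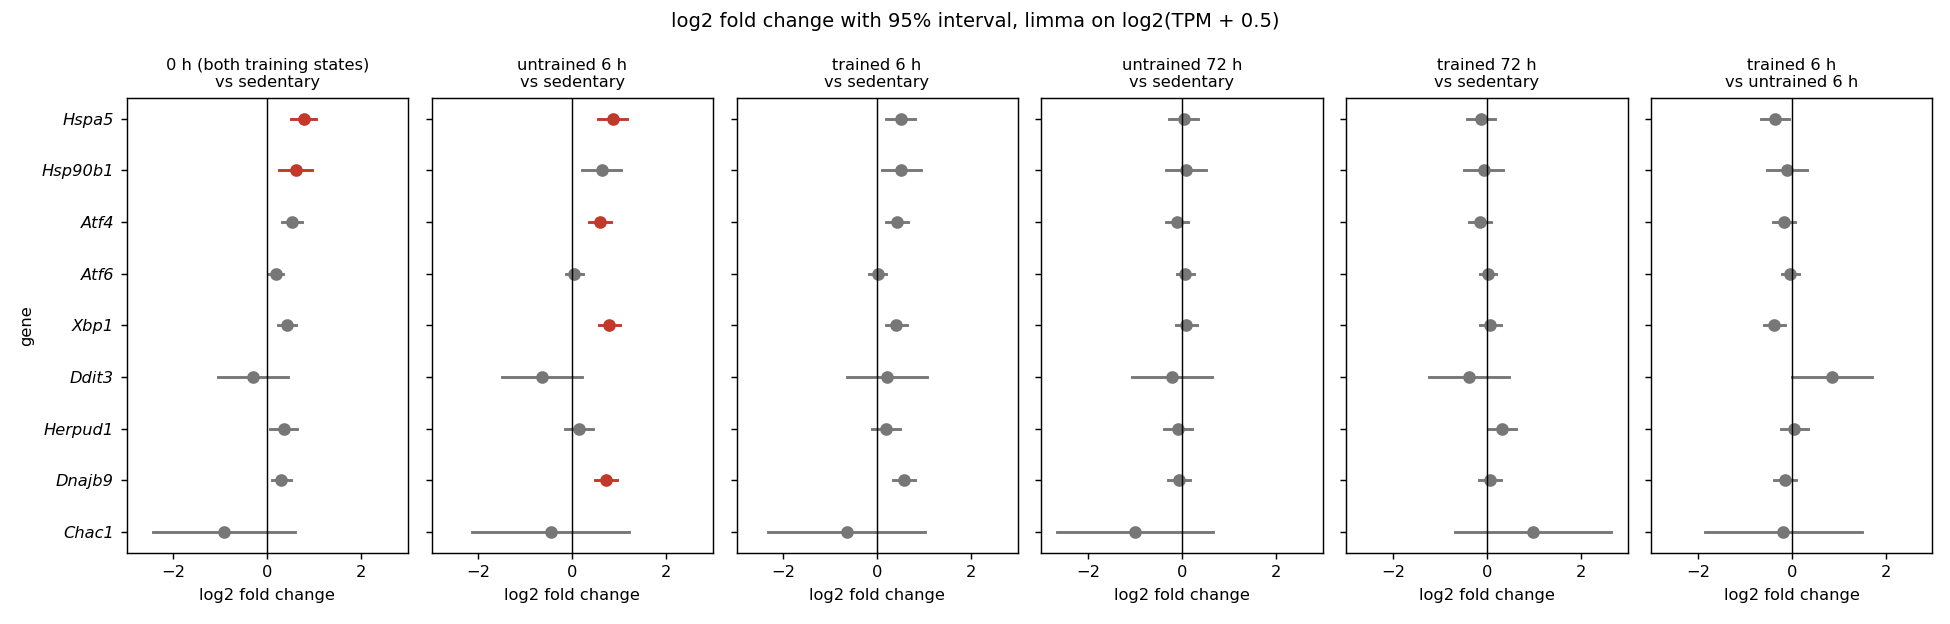
log2 fold changes (horizontal axes, log2 scale) of the 9 tested genes (vertical axis) in 6 of the 10 comparisons, with bars for the 95% interval. Red marks genes called higher, and grey marks genes that were not called. Hspa5 and Hsp90b1 were called at 0 h, Hspa5, Atf4, Xbp1 and Dnajb9 in untrained muscle at 6 h, and none at 72 h or between training states at 6 h.

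At 72 h no member was called. In untrained muscle 0 of 9 members passed, where 0.00845% of all tested genes did (1 gene, Cd68), and in trained muscle 0 of 9, where 0.245% did. In limma 0 of 9 members had an unadjusted p under 0.05 in untrained muscle, beside 714 of all 11830 tested genes. In trained muscle 1 of 9 did, Herpud1, beside 1514 of all 11830. Hspa5 stood at 34.3, 38.4 and 34.4 TPM in untrained muscle and at 34.5, 28.4 and 32.9 TPM in trained muscle. Both ranges overlapped the sedentary one. The 95% interval of its log2 fold change against sedentary muscle was -0.27 to 0.34 in untrained and -0.43 to 0.18 in trained muscle. For Xbp1 these intervals were -0.13 to 0.32 and -0.15 to 0.29, and for Dnajb9 -0.29 to 0.18 and -0.16 to 0.31. Levels of both genes overlapped the sedentary range in both training states.

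The direct comparison of training states set the levels in trained muscle against those in untrained muscle at the same time after the bout. A difference present before the bout cannot be told apart in it from a different response to the bout. No member was called at any time. At 0 h 0 of 9 members were called, where 0% of all tested genes were. In limma 528 of 11830 genes had an unadjusted p under 0.05, below the 591.5 that this threshold gives on average with no change in any gene. At 6 h it was 0 of 9, where 1.94% were called, and at 72 h 0 of 9, where 0.363% were called. Of the members, 0 of 9 had an unadjusted p under 0.05 in limma at 0 h. At 6 h 3 of 9 did (Hspa5, Xbp1 and Ddit3), beside 2263 of all 11830 tested genes. At 72 h 2 of 9 did (Herpud1 and Chac1), beside 1929 of all 11830. Xbp1 at 6 h came closest, with a log2 difference of -0.38 between trained and untrained muscle (95% interval -0.61 to -0.16, adjusted p = 0.0523). Over 17 alternative settings the adjusted p ran from 0.00709 to 0.375, and without untrained 6 h replicate 2 the difference was -0.26 (adjusted p = 0.2). For Hspa5 at 6 h the difference was -0.36 (95% interval -0.67 to -0.05, adjusted p = 0.178). That Hspa5 and 3 other members were called against sedentary muscle at 6 h only in the untrained state is therefore not a shown difference between states.

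The 4 groups at 0 h and 6 h had the highest mean levels of Hspa5, Hsp90b1, Atf4, Xbp1 and Dnajb9, and the order within them differed between genes. For Hspa5 it ran from untrained 6 h (64.5 ± 11.8 TPM, SD, n = 3) over untrained 0 h (63.1), trained 0 h (55.8) and trained 6 h (50.2 ± 8.88) to untrained 72 h (35.7 ± 2.36), sedentary (34.8 ± 1.503) and trained 72 h (31.9 ± 3.13). The ranges of neighbours in this order overlapped except at 1 step, between trained 6 h and untrained 72 h. For Xbp1 there were 2 such steps, from untrained 6 h (25.4 ± 4.25 TPM) to trained 0 h (19.3) and from trained 6 h (19.2 ± 1.81) to untrained 72 h (15.4 ± 0.74). For Dnajb9 the only such step lay between trained 6 h (12.0 ± 1.31 TPM) and trained 0 h (9.90), without the shared library. Across the 20 libraries, which share the group differences, log2 levels of Hspa5 and Hsp90b1 correlated with a Pearson r of 0.90, Xbp1 and Dnajb9 with 0.90, and Hspa5 and Atf4 with 0.89. The tested genes most like Hspa5 were Hspd1, which encodes a mitochondrial chaperone (r = 0.95), Gm37348 (0.95) and Gla, the lysosomal alpha-galactosidase (0.94). Hspa5 was also the member called in most comparisons, 4 of 10. These were the pooled, untrained and trained 0 h comparisons, which share libraries, and untrained 6 h, all against the same sedentary libraries.

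The other members did not follow. Ddit3 encodes CHOP, a transcription factor linked to cell death under lasting stress, and lies on chromosome 10, 127124268 to 127132163, on the plus strand. Ddit3 stood at 32.7, 61.5 and 38.2 TPM in sedentary muscle, and at 23.3 TPM (shared library), 67.9 and 24.2 TPM (untrained) and 31.6 and 38.9 TPM (trained) at 0 h. The ranges overlapped, and the log2 fold change was -0.31 (95% interval -1.05 to 0.44). At 6 h it stood at 30.3, 21.95 and 29.9 TPM in untrained muscle and at 33.5, 59.5 and 60.4 TPM in trained muscle. All 3 untrained libraries lay below the sedentary range (log2 fold change -0.64, SE 0.40, adjusted p = 0.385), and the value against sedentary muscle was 0.21 in trained muscle (adjusted p = 0.791). The ranges of both training states did not overlap, but the log2 difference between trained and untrained muscle at 6 h was 0.86 (SE 0.40, 95% interval 0.01 to 1.70) and did not pass (adjusted p = 0.258).

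Chac1, a glutathione-degrading enzyme and known target of ATF4 and CHOP, has 3 exons on chromosome 2, 119180757 to 119184866, on the plus strand. Chac1 was the most variable member, with a coefficient of variation of up to 118% within a group. It stood at 32.7, 15.4 and 18.96 TPM in sedentary muscle and at 2.46 to 27.4 TPM in the 5 libraries at 0 h. At 6 h its log2 fold change against sedentary muscle was -0.46 in untrained (SE 0.78, adjusted p = 0.798) and -0.65 in trained muscle (SE 0.78, adjusted p = 0.658). At 72 h it stood at 44.6, 36.3 and 46.9 TPM in trained muscle, above all other libraries, and at 26.01, 3.90 and 10.4 TPM in untrained muscle. Neither the difference between these training states (log2 1.99, SE 0.78, 95% interval 0.31 to 3.66, adjusted p = 0.22) nor that of trained 72 h from sedentary muscle (0.98, adjusted p = 0.658) passed. Clock genes moved in the same trained 72 h libraries, with Per1, Per2 and Ciart called higher and Arntl lower than in sedentary muscle. Of all tested genes 0.245% were called there. Per1 and Per2 were also called higher at 0 h and 6 h in both training states, where Chac1 was not called. The part of the clock genes in the Chac1 values was not tested.

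Herpud1, a membrane protein of ER-associated degradation, has 8 exons on chromosome 8, 95113022 to 95123141, on the plus strand. Herpud1 was highest at 0 h in trained muscle, with 59.1 and 53.0 TPM against 35.6, 44.2 and 37.5 TPM in sedentary muscle. These did not overlap, but the log2 fold change of 0.52 (SE 0.16) did not pass (adjusted p = 0.0688). At 6 h the value was 0.14 in untrained (SE 0.14, adjusted p = 0.631) and 0.19 in trained muscle (SE 0.14, adjusted p = 0.421). At 72 h its levels were 43.1, 53.3 and 50.9 TPM in trained muscle and 35.5, 33.0 and 42.7 TPM in untrained muscle, with a log2 difference of 0.40 (SE 0.14, adjusted p = 0.168).

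Atf6, the sensor that is itself a transcription factor, has 16 exons on chromosome 1, 170532026 to 170696208, on the minus strand. Atf6 was expressed at a low level of 2.57 to 3.65 TPM in all libraries, and its largest log2 fold change against sedentary muscle was 0.27 (95% interval 0.07 to 0.47, adjusted p = 0.11), at 0 h in trained muscle. At 6 h it was 0.05 in untrained (adjusted p = 0.805) and 0.01 in trained muscle (adjusted p = 0.946). Trib3, a pseudokinase and known target of ATF4 and CHOP, has 4 exons on chromosome 2, 152179337 to 152191958, on the minus strand. Trib3 stood at 0.11 to 0.47 TPM, too low for the test. When all genes were tested without the filter, no Trib3 difference passed, and its lowest adjusted p was 0.19.

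The wider pathway was examined with gene lists, whose calls were not checked under the alternative settings used for the members. Among the sensors and genes of the eIF2alpha branch, 12 of 14 were tested and 2 were higher at 0 h over both training states, where 3.85% of all tested genes were called. Ppp1r15a (GADD34), a subunit of the phosphatase that removes the eIF2alpha phosphate, rose by 0.95 (SE 0.14, 18.2 against 9.11 TPM, adjusted p = 0.000316). Its constitutive relative Ppp1r15b rose by 0.59 (SE 0.14, adjusted p = 0.00992), close to the fold threshold. At 6 h Ppp1r15a was the only one of these 12 called in untrained muscle, where 4.23% of all tested genes were (0.82, SE 0.16, adjusted p = 0.00517), and it was lower in trained than in untrained muscle (10.6 against 16.9 TPM, log2 difference -0.61, SE 0.16, adjusted p = 0.0459), 1 of 12 where 1.94% of all tested genes were called. No other gene of this list was called in any comparison. The median log2 fold change of the list at 0 h was 0.12, beside 0.11 for all tested genes.

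Of 17 tested ER chaperones and folding enzymes other than the members, 0 were called in any comparison, where 3.85% of all tested genes were at 0 h over both training states. At 0 h over both training states 15 of the 17 had a positive log2 fold change, with a median of 0.29 beside 0.11. In limma 9 of the 17 had an unadjusted p under 0.05, beside 3300 of all 11830 tested genes. By adjusted p alone 5 passed, where 11.5% of all tested genes did. Among them was Calr, the calcium-binding chaperone calreticulin (0.36, adjusted p = 0.0113). In untrained muscle at 6 h the median was 0.26 beside 0.02, and in trained muscle 0.04 beside -0.02. Of 12 tested genes of ER-associated degradation 0 were called in any comparison, where 3.85% of all tested genes were at 0 h over both training states. Their median there was 0.13 beside 0.11 for all tested genes. In limma 4 of the 12 had an unadjusted p under 0.05 there, beside 3300 of all 11830 tested genes.

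Of 22 listed targets of ATF4 and the integrated stress response, 11 were expressed highly enough to test, and 4 were higher at 0 h over both training states, where 3.85% of all tested genes were called. Atf3, a stress-induced transcription factor, rose by 4.76 (SE 0.46, 36.8 against 0.841 TPM, adjusted p = 3.62e-06), and Ddit4, an inhibitor of mTORC1, by 4.11 (SE 0.27, 33.1 against 1.36 TPM, adjusted p = 6.32e-08). Cebpb rose by 1.97 (SE 0.19, adjusted p = 3.62e-06). The list's median at 0 h was nevertheless 0.17 beside 0.11, since 7 of the 11 were not called. At 6 h Atf3, Ddit4 and Cebpb were called higher in each training state, 3 of 11. Of all tested genes 4.23% were called in untrained and 3.84% in trained muscle. In untrained muscle at 6 h Atf3 was higher still (6.29, SE 0.55, 109 TPM, adjusted p = 7.6e-06). Atf3 was lower in trained than in untrained muscle (log2 difference -3.38, SE 0.55, adjusted p = 0.00327), 1 of 11 where 1.94% of all tested genes were called. It varied widely in trained muscle, with 14.3 ± 15.8 TPM (SD, n = 3) and a range of 3.56 to 32.5 TPM, against 68.9 to 148.9 TPM in untrained muscle. Of the ER stress death genes, 3 of 5 were tested, and the death receptor gene Tnfrsf10b stood at 1.94 ± 0.48 TPM (SD, n = 5) at 0 h and 0.750 ± 0.037 TPM (SD, n = 3) in sedentary muscle. It reached the level needed for the test only through its 0 h libraries (mean 0.779 TPM over the sedentary and 72 h libraries), so no test is given for it.

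**Figure D3:**
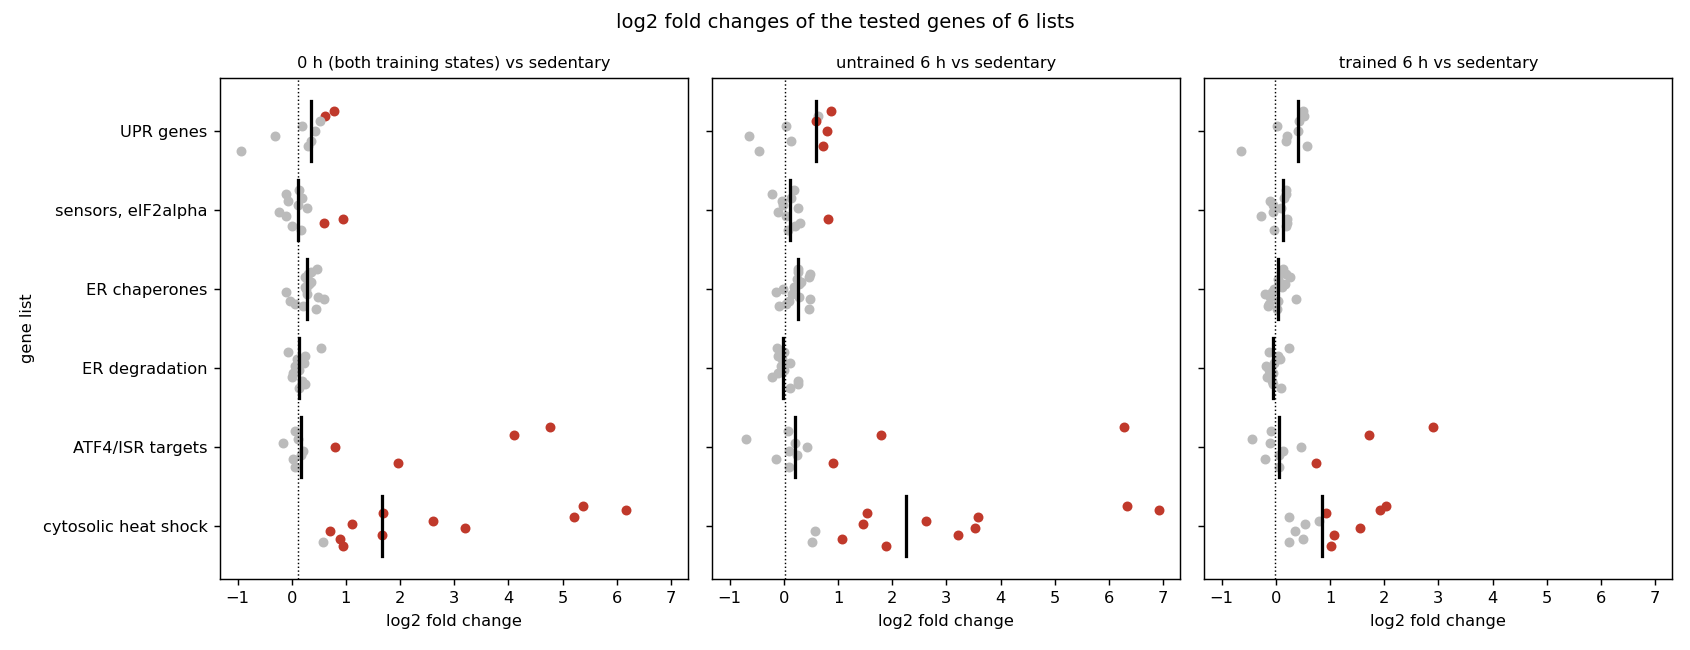
log2 fold changes (horizontal axes, log2 scale) of the tested genes of 6 lists (vertical axis) at 0 h, in untrained muscle at 6 h and in trained muscle at 6 h, each against sedentary muscle. Points are genes, red where called higher and grey where not called, vertical bars are list medians, and the dotted line is the median of all tested genes. The median of the unfolded protein response genes was 0.35, 0.60 and 0.41, and that of the cytosolic heat shock genes 1.67, 2.25 and 0.86. The heat shock points and medians include Hspa1a and Hspa1b, which reached the level needed for the test only through 0 h and 6 h libraries.

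Cytosolic and mitochondrial heat shock genes, which respond to unfolded proteins outside the endoplasmic reticulum through HSF1 and other factors, moved much further than the members. At 0 h over both training states 11 of 12 were called higher, where 3.85% of all tested genes were called, with a median of 1.67. Of the 12, Hspa1a and Hspa1b reached the level needed for the test only through 0 h and 6 h libraries. No test is given for either, but the counts and medians of this list include both. Both are among the genes counted as called at 0 h, at 6 h in each training state and between training states at 6 h. Hspa1b, an inducible Hsp70, stood at 86.3 TPM at 0 h against 0.589 TPM in sedentary muscle, whereas Hspa5 with its 1.72-fold change started from 34.8 TPM. At 6 h 10 were called in untrained muscle, where 4.23% of all tested genes were, with a median of 2.25. In trained muscle at 6 h 6 were called, where 3.84% of all tested genes were, with a median of 0.86. Between training states at 6 h 9 of the 12 were called lower in trained muscle, where 1.94% of all tested genes were called. The median there was -1.38, while that of the members was -0.15 and that of all tested genes -0.04. Hspa1b stood at 4.23 TPM in trained and 136 TPM in untrained muscle at 6 h. Its reads cannot be fully told apart from those of its near-identical copy Hspa1a.

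Clock genes also moved. At 0 h over both training states Per1, Per2 and Ciart were higher and Nr1d1 was lower than in sedentary muscle, and Per1 stood at 19.99 against 2.01 TPM (log2 fold change 3.05, SE 0.24, adjusted p = 4.3e-07). At 6 h Per1, Per2 and Cry2 were higher and Nr1d1 lower in both training states. At 72 h in trained muscle 4 of 11 clock genes and 0 of 9 members were called, where 0.245% of all tested genes were. The part of the time of day in the members' levels was not tested.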

How the data were processed

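The authors made the deposited values, per the labels and the methods of the study, by aligning reads to GRCm39 with STAR 2.7.9 and estimating TPM per gene with Salmon 1.5.0. TPM keeps no read counts, so no count test or counting interval was possible. Columns were matched to samples by title, and 0 columns were left unassigned. Values were tested as log2(TPM + 0.5) with limma 3.58.1 (R 4.3.3) with a variance trend, over the 11830 genes whose mean reached 1 TPM. The main model held 7 groups and 19 libraries (12 residual degrees of freedom), and the pooled 0 h model 6 groups and 20 libraries (14 residual degrees of freedom). The labels number the replicates without naming the animals, so p-values measure only the spread between libraries, which may be technical. The code was tested on simulated data. Intervals are 95% intervals. The members and lists were chosen with earlier results of these data known. The rule named all members in every comparison, where those not called are given mostly as counts, and from each other list at most the 3 called genes with the largest change per comparison. Where 4 clock genes were named, the fourth was chosen after its values were seen, as were Calr and the cell markers. Alternatives were pseudocounts of 0.1 and 1, no filter or a mean of 5 TPM, median-of-ratios scaling, TPM without mitochondrial genome genes, only the groups compared, no variance trend, a replicate block, no fold threshold, the shared library kept, and each library left out. Gene positions are from GENCODE. Promoters were searched with Python 3.11.15.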

Additional observations from a re-analysis of the deposited data

How the results depend on the processing

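No member value changed its direction while called, in 1502 recomputed values, of which 1456 kept their side of the threshold, 25 lost the call and 21 gained it. Over both training states at 0 h, 2 members were called, and 1 was (Hspa5) with no filter on expression, with median-of-ratios scaling and with TPM rescaled without mitochondrial genome genes, 4 with no fold threshold, and 1 to 3 when single libraries were left out. In untrained muscle at 0 h 1 was called, 2 with the shared library kept as deposited, and 0 to 1 with single libraries left out. In trained muscle at 0 h 1 was called, 0 with median-of-ratios scaling, without mitochondrial genome genes and when the model held no other groups, 2 with no fold threshold, and 0 to 1 with single libraries left out. In untrained muscle at 6 h 4 were called, 1 with a model of these groups alone, and 3 to 5 with single libraries left out. There Atf4 was lost under both other scalings (0.58 and 0.55), and Hsp90b1 was gained under median of ratios (0.61, adjusted p = 0.0361) and with the shared library kept (0.63, adjusted p = 0.0424). In trained muscle at 6 h 0 were called, 1 (Dnajb9) with a pseudocount of 0.1, with median-of-ratios scaling and without mitochondrial genome genes, 4 with no fold threshold, and 0 to 3 with single libraries left out. The cause of these changes was not tested. At 72 h and between training states the count was 0 in all settings run. Where 1 library was left in a group, it was assumed to vary like the other groups.

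No pairing by replicate number was seen in the deviations of the libraries from their group means. The 52 pairs with the same number had correlations of -0.09 to 0.09, and the 102 pairs with different numbers -0.12 to 0.12. With at most 3 libraries per group this cannot exclude that the numbers mark a pairing. With a replicate block, 0 members were called in trained muscle at 0 h (Hspa5 0.66, adjusted p = 0.0594), and no other count of members changed. TPM carry no depth, which limits what can be said of Trib3.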
